A study of Mus musculus with 4 samples.

Results

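The cells described here held transcripts of Myf5 or Myod1, genes of skeletal muscle progenitors. They came from tissue that included the mouse pharyngeal apparatus at embryonic day 9.5. A barcode was taken as myogenic when it held at least 1 UMI (a counted RNA molecule) of Myf5 plus Myod1, with at most 2 UMIs of the epithelial gene Epcam and at most 2 of the endothelial genes Cdh5 plus Pecam1. There were 243 such cells among the 11719 barcodes of the 2 libraries at E9.5. Of these, 131 were in the control and 112 in the mutant library. Tcf21 and Msc were taken as genes of the branchiomeric (head and pharyngeal) lineage, although the study also names Tcf21 among anterior second heart field genes. Cells with at least 1 UMI of Tcf21 plus Msc and fewer than 2 of Tcf15 plus Meox1 were called the branchiomeric arm. Cells with at least 2 UMIs of Tcf15 plus Meox1, taken as somite genes, and none of Tcf21 or Msc were called the somitic arm. Both arm names are those of the rule. The members were chosen by the measured UMIs of these 9 genes, so the values of those genes are given below as a description.

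The study sorted live GFP positive cells from the pharyngeal apparatus and heart of Swiss Webster embryos, by the study's methods taken with the back, and profiled them on the 10x Chromium 3′ platform. Ctrl embryos were Tbx1Cre/+;Rosa26-GFPflox/+ and cKO embryos were Tbx1Cre/flox;Rosa26-GFPflox/+, so GFP followed cells that had expressed Tbx1 and their descendants. In both genotypes the Cre allele replaced 1 functional copy of Tbx1, and the control was therefore heterozygous. Embryos were pooled before sorting and each genotype gave 1 library, so no difference between genotypes below has a replicate check, no p-value is given, and every interval (95%, exact) covers counting error only.

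Skeletal muscle is specified by the basic helix-loop-helix factors Myf5 and Myod1, and Myog and contractile genes follow when myoblasts differentiate. In the trunk and limbs these factors are switched on in somites, mostly under Pax3. Muscles of the jaw, face and pharynx form instead from cardiopharyngeal mesoderm, which also makes second heart field cells, and there Tbx1, Tcf21, Msc, Isl1 and Lhx2 act upstream of the same factors. Tbx1 encodes a T-box factor whose loss impairs branchiomeric muscle formation.

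The Ctrl library held 5453 barcodes with a median of 16666 UMIs and the cKO library 6266 with a median of 15910. Myogenic cells were slightly deeper, with medians of 19674 and 19806 UMIs. The libraries shared 55 barcode sequences, and no barcode was myogenic in both. Ribosomal protein genes took 24.9% of the UMIs of the branchiomeric arm in Ctrl and 31.6% in cKO, and 24.5% and 30.5% of those of reference cells (no UMI of Myf5, Myod1, Tcf21 or Msc, fewer than 2 of Tcf15 plus Meox1, same limits on the other genes), so the gap between the libraries was of like size in both. Levels are given as UMIs per 1000000 UMIs of the 27514 genes shared by all tables (UPM).

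Myf5 (ENSMUSG00000000435, chr10:107482908-107486927, GRCm38.p6) was the gene through which most cells were found. It gave 187 UMIs in the Ctrl and 134 in the cKO myogenic cells, against 11 and 24 UMIs of Myod1 (ENSMUSG00000009471, chr7:46376474-46379092). Transcripts were sparse: 90 of the 131 Ctrl and 81 of the 112 cKO cells held exactly 1 UMI of the pair, and the highest count in a cell was 6 and 4. Cells just outside the threshold held none. At the limits on other lineages, 4 Ctrl barcodes and 0 cKO barcodes with Myf5 or Myod1 were left out.

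Myogenic cells made up 2.40% (2.01 to 2.84) of Ctrl barcodes and 1.79% (1.47 to 2.15) of cKO barcodes. The difference of -0.615 percentage points was -0.232 after thinning every cell to 10000 UMIs and -0.257 with at least 2 UMIs of the pair. Among barcodes that should lack these genes, a Myf5 or Myod1 UMI was found in 3 of 730 epithelial barcodes of Ctrl (0.411%, median depth 18763 UMIs) and in 0 of 201 of cKO (18481 UMIs), which allows a share of up to 1.49%. Endothelial barcodes held it in 1 of 317 (20436 UMIs) and 0 of 69 (16335 UMIs). Branchiomeric cells held it in 12.5% in Ctrl and 8.57% in cKO, far above this background. Cells of neither arm held it in 0.930% (0.608 to 1.36) and 0.853% (0.563 to 1.24), and somitic cells in 0.142% (0.00359 to 0.787) and 1.04% (0.616 to 1.64). The intervals of both classes overlapped those of the epithelial barcodes, which were 0.0848 to 1.20 in Ctrl and 0 to 1.82 in cKO. With so few epithelial barcodes positive, this share cannot tell whether either class lay above background.

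The 2 arms differed in size between the libraries. In Ctrl, 101 of the 131 myogenic cells (77.1%, 68.9 to 84.0) lay in the branchiomeric arm and 1 (0.763%) in the somitic arm. In cKO the branchiomeric arm held 57 of 112 cells (50.9%, 41.3 to 60.5) and the somitic arm 18 (16.1%, 9.81 to 24.2). Cells past both rules numbered 3 in Ctrl and 10 in cKO, and cells past neither 26 and 27. Cells past both rules were deep, with medians of 36681 and 33504 UMIs.

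**Figure D1:**
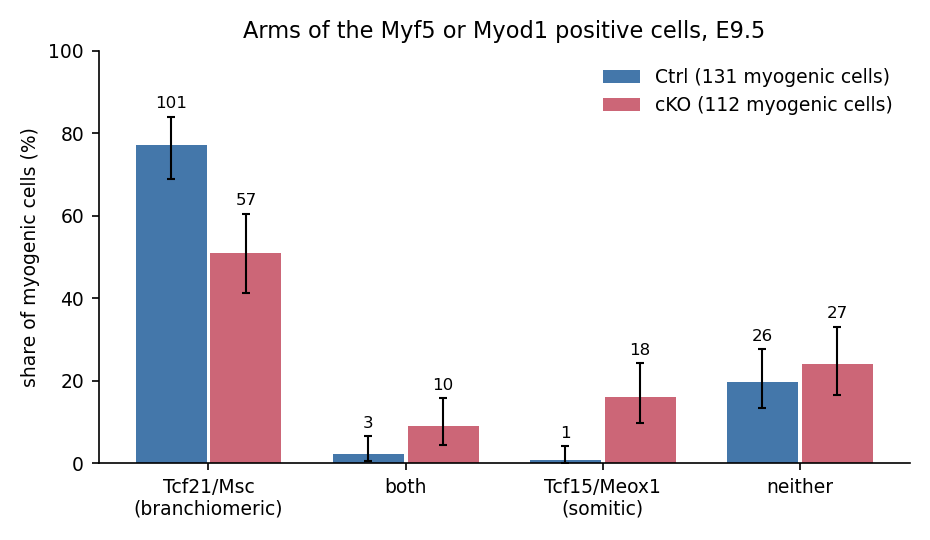
Share of the myogenic cells of each E9.5 library (vertical axis, percent) in the branchiomeric arm, in both arms, in the somitic arm and in neither. Bars are 1 library each, with exact 95% intervals and the number of cells above; the branchiomeric share is 77.1% in Ctrl and 50.9% in cKO.

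The makeup of the sorted cells moved in the same direction. Branchiomeric cells of any kind were 14.9% of Ctrl and 10.6% of cKO barcodes, and somitic cells of any kind were 12.9% and 27.7%. Somitic names the rule here and not a settled identity. Of the somitic cells without Myf5 or Myod1, Meox1 was seen in 92.1% in Ctrl and 94.8% in cKO. Tcf15 was seen in 45.5% and 35.1% of them, and Tbx1 in 76.5% and 79.2%. With 1 library each, the makeup of the tissue taken and the genotype cannot be told apart in these shares. Within the branchiomeric cells, after thinning each cell to 10000 UMIs, 52 of 660 in Ctrl (7.88%, 5.94 to 10.2) and 33 of 559 in cKO (5.90%, 4.10 to 8.19) held a Myf5 or Myod1 UMI, and the intervals overlapped. Counting only cells with at least 2 UMIs of Myf5 plus Myod1, the difference between the libraries was -0.084 percentage points, against -1.98 with 1 UMI. Within somitic cells the thinned share was 1 of 494 in Ctrl (0.202%) and 9 of 1346 in cKO (0.669%).

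**Figure D2:**
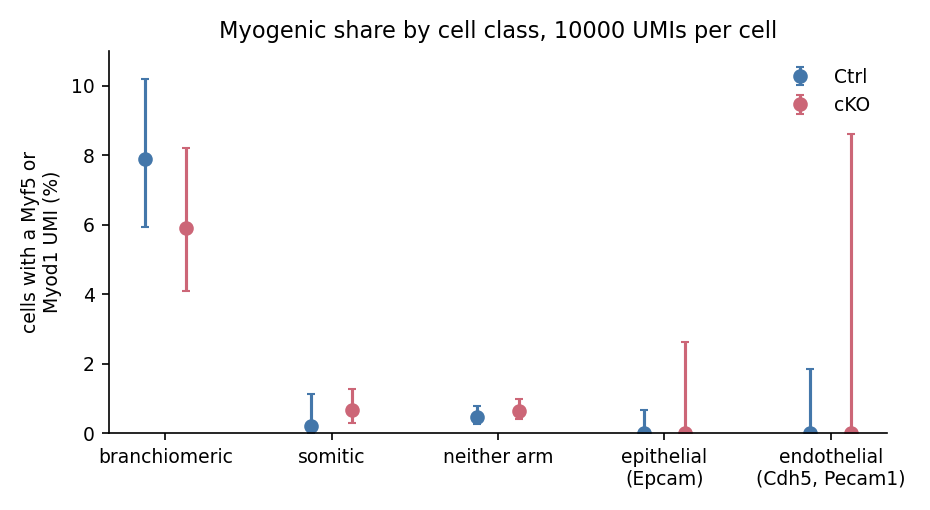
Share of cells with a Myf5 or Myod1 UMI (vertical axis, percent) in 5 classes of cells, each cell thinned to 10000 UMIs, with exact 95% intervals and 1 library per genotype. Branchiomeric cells reach 7.88% in Ctrl and 5.90% in cKO, and no other class is above 0.669%.

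Tbx1 (chr16:18580979-18590671) is the targeted gene. It gave 458 UMIs in the Ctrl and 237 in the cKO branchiomeric arm, which was 210 UPM (191 to 230) and 205 UPM (180 to 233), which on the log2 scale was a ratio of -0.03 (-0.27 to 0.20). Transcripts were seen in 95 of 101 and 49 of 57 cells. The ratio lay near 0 and its sign turned with the scaling, from -0.32 with the reference cells subtracted to 0.15 with TMM factors. Counts from the 3′ end do not show whether the floxed part was present in these transcripts, so this value does not check the deletion.

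The regulators of branchiomeric muscle did not move together. Of the 19 listed genes 13 had at least 50 UMIs over both libraries, and their median log2 ratio of cKO over Ctrl was -0.28, beside -0.22 for all 5930 genes tested. Past 2-fold (a log2 ratio at least 1 away from that median), 3 of the 13, Lhx2, Isl1 and Tlx1, were lower, where 2.06% of all genes tested were higher (122 genes) and 4.18% lower (248 genes). In the branchiomeric cells without Myf5 or Myod1 2.82% of genes were higher and 2.36% lower, and in the reference cells 3.58% and 2.74%.

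Lhx2 (chr2:38339271-38369737), a LIM homeobox gene of branchiomeric progenitors, was lower in cKO. It gave 363 UMIs in 90 of 101 Ctrl cells and 76 UMIs in 33 of 57 cKO cells, or 166 UPM (150 to 184) and 65.8 UPM (51.8 to 82.4), which on the log2 scale was a ratio of -1.34 (-1.72 to -0.98). The other branchiomeric cells had a larger difference of -2.20 and the reference cells one of -1.28, so the lower Lhx2 level was not limited to myogenic cells. Tlx1, a homeobox gene of the pharyngeal arches, went with it, from 76.6 UPM (65.4 to 89.1) to 26.0 UPM (17.5 to 37.1), which on the log2 scale was a ratio of -1.56, beside -2.09 and -1.28 in those cells.

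Isl1, a LIM homeobox gene shared by second heart field and mandibular muscle progenitors, gave 253 UMIs in 70 of 101 Ctrl cells and 35 UMIs in 20 of 57 cKO cells. The level was 116 UPM (102 to 131) against 30.3 UPM (21.1 to 42.1), which on the log2 scale was a ratio of -1.94 (-2.49 to -1.42), which exceeded the -1.18 of the other branchiomeric cells and the -0.49 of the reference cells. Ebf1, a transcription factor of early muscle and mesenchyme, had a log2 ratio of 0.07 (-0.15 to 0.29). The 2 arm genes themselves were at 172 and 139 UPM for Tcf21 and at 72.9 and 105 UPM for Msc.

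**Figure D3:**
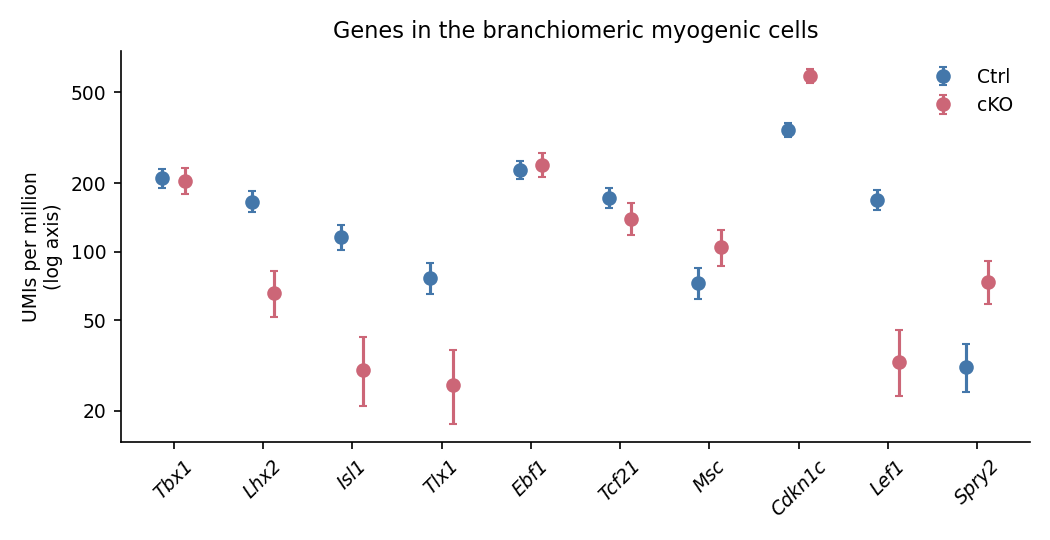
Level of 10 genes (UPM, log axis) in the branchiomeric arm of Ctrl (101 cells) and cKO (57 cells), 1 library each, with exact 95% counting intervals. Tbx1 and Ebf1 lie close in both, Cdkn1c and Spry2 are higher in cKO, and Lhx2, Isl1, Tlx1 and Lef1 are lower.

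Myod1, a gene of the rule, was seen in 10 of the 101 cells of the branchiomeric arm in Ctrl (9.90%) and in 16 of 57 in cKO (28.1%), and Myf5 in 92 and 45 cells.

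Cdkn1c encodes p57, an inhibitor of cyclin-dependent kinases that accompanies cell cycle exit in muscle. In the branchiomeric arm it gave 748 UMIs in Ctrl and 683 in cKO, or 343 UPM (319 to 368) and 591 UPM (548 to 637), which on the log2 scale was a ratio of 0.79 (0.63 to 0.94). Levels in cKO were uneven, with 82 and 76 of the 683 UMIs in the top 2 cells. Genes of S phase had a median log2 ratio of -0.67 with 0 of 25 higher and 2 lower past 2-fold, close to the -0.58 of the same genes in the reference cells. For G2/M the median was -0.32 with 1 of 25 lower. Across all genes tested in the arm, 2.06% were higher and 4.18% lower.

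Differentiated muscle was almost absent. Of 49 listed muscle differentiation genes, 18 in the Ctrl arm and 19 in the cKO arm had no UMI, among them the acetylcholine receptor genes Chrna1 and Chrnd. Myog, which commits myoblasts to differentiate, gave 0 UMIs in Ctrl (under 1.38 UPM at 3 counts) and 2 UMIs in 2 cells of cKO, and Cdh15 (M-cadherin) gave 4 and 2. The 9 listed genes with enough UMIs had a median log2 ratio of -0.09, which was above 0 under some scalings (0.09 with TMM factors), with Cdkn1c higher just past 2-fold and none lower. That call was lost with the cells past both arm rules counted in the arm (Cdkn1c at 0.58) and without the cells with 2 or more neural markers (0.76). Tpm1 (tropomyosin) was at 208 and 340 UPM, a log2 ratio of 0.71 (0.51 to 0.91), and Des (desmin) at 91.2 and 45.9 UPM, -0.99 (-1.46 to -0.55).

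Signalling genes were described by list, and no list was tested as a set. Of all 5930 genes tested in the arm, 2.06% were higher and 4.18% lower past 2-fold. In the WNT list 0 of 10 tested genes were higher and 2 lower past 2-fold, Lef1 and Tcf7, the nuclear partners of β-catenin. Lef1 was at 169 UPM (152 to 187) in 82 of 101 Ctrl cells and 32.9 UPM (23.3 to 45.2) in 22 of 57 cKO cells, a log2 ratio of -2.36 (-2.88 to -1.87). The other branchiomeric cells were at -1.58 and the reference cells at -0.31. Tcf7 was at 68.8 and 26.8 UPM, -1.36 (-1.97 to -0.79).

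Among 8 FGF genes Spry2, a feedback inhibitor, was higher, at 31.2 UPM (24.2 to 39.5) and 73.6 UPM (58.8 to 91.0), and Fgf10, a ligand of the second heart field, was lower, at 25.7 and 6.93 UPM. The log2 ratios were 1.24 (0.76 to 1.72) and -1.89 (-3.17 to -0.81). In the BMP list 3 of 10 were lower, the ligand Bmp7 (-1.63) and the secreted antagonists Grem1 (-2.34) and Fst (-1.49, and also -1.49 in the reference cells), while the target Id1 was at 0.64 (0.44 to 0.84) and passed no threshold. In the Notch list the ligand Jag1 and the receptor Notch2 were higher (0.87 and 1.18) among 8, and the target Hey1 had a ratio of -1.19, just inside 2-fold of the median. None of 4 Hedgehog and none of 10 migration and adhesion genes passed. Of 5 tested genes in the list of somitic regulators 3 were higher, Foxc1 (1.48), Uncx (1.30) and Twist1 (1.18), and none lower. In the other branchiomeric cells 2 of 11 genes of that list were higher and 1 lower. For the reference cells it was 2 of 14 higher and 2 lower. Beside all these lists, 2.06% of all genes tested in the arm were higher and 4.18% lower. In the glycolysis list Pgk1 had a ratio of 3.77, beside 3.84 in the reference cells, and 2 of 15 genes were lower.

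The retinoid-binding genes Crabp1 and Crabp2 were the 2 lower genes of 5 in the retinoic acid list, beside 4.18% of all genes tested. However, Crabp1 rested on few cells. It gave 689 UMIs in Ctrl, 338 of them in 1 cell, and 110 in cKO, a log2 ratio of -1.73. In Ctrl 5 arm cells held 2 or more of 7 neural markers (Sox2, Sox1, Pax6, Tubb3, Elavl3, Neurog1 and Neurod1) and these held 492 of the Crabp1 UMIs; 1 cKO cell did so. Without those cells the Crabp1 ratio was -0.04 and that of Crabp2 moved from -1.38 to -0.97. Of the 7 markers, 1 in Ctrl and 4 in cKO were at 0 in the arm, and their summed level was 29.8 and 9.52 UPM. Of the other lineages, whose genes Epcam, Cdh5 and Pecam1 the rule limits and which are left out of these sums, epithelial markers gave 27 UMIs in Ctrl and 4 in cKO, a log2 ratio of summed levels of -1.84 (-3.81 to -0.32), and neural crest markers 51 and 12, a ratio of -1.17 (-2.21 to -0.24). For endothelial markers, with 142 and 61 UMIs, the ratio was -0.30 (-0.76 to 0.14), and for blood markers, with 5 and 1 UMIs, -1.40 (-6.97 to 1.75), and both intervals span 0. Their part in the results was not tested.

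By a fixed rule of size, 14 genes were higher and 70 lower in the cKO arm past 2-fold both from the median and from the reference cells. Among the higher genes with the strongest bounds were Cdkn1c, Dab1, Gtf2ird1, Cdo1, BC068281, Foxc1, Mzt2, Phlda3, Twist1, Plat and Jag1. Foxc1, a forkhead factor of paraxial mesoderm, was at 9.63 and 26.8 UPM, and Twist1, a mesenchymal factor that inhibits myogenic differentiation, at 20.6 and 46.8 UPM. The log2 ratios were 1.48 (0.63 to 2.35) and 1.18 (0.58 to 1.78). Dab1, an adaptor of reelin signalling, was at 1.18 here and 1.06 in the other branchiomeric cells. BC068281 had a ratio of 4.38 but also 2.63 in the reference cells, so the difference was not confined to myogenic cells. The gene tables of the Ctrl and cKO libraries listed 27998 and 31053 genes. In such ratios the gene reference and the genotype cannot be told apart.

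Of the 70 lower genes, the 12 with the strongest bounds were Igfbpl1, Crabp1, Lef1, Tubb2b, Scmh1, Isl1, Parm1, Meis2, Nrg1, Kazald1, Gchfr and Vsnl1. Igfbpl1, an insulin-like growth factor binding protein, gave 66 UMIs in 33 Ctrl cells and 4 UMIs in 3 cKO cells, a log2 ratio of -3.13 (-5.05 to -1.70), against 0.72 in the reference cells. Tubb2b (β-tubulin) was at 53.2 and 9.52 UPM, a ratio of -2.48 that was -2.13 without the cells with neural markers. Meis2, a homeobox partner of Hox proteins, was at 111 and 42.4 UPM, and Nrg1, a ligand of ErbB receptors, at 40.8 and 13.0 UPM. The Meis2 ratio of -1.39 was -0.40 when the cells past both arm rules were included.

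**Figure D4:**
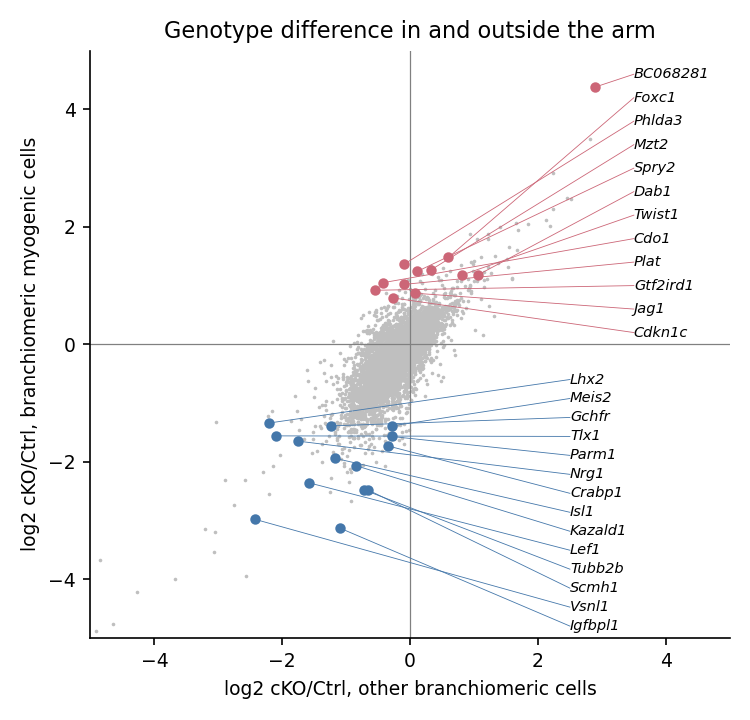
Log2 ratio of cKO over Ctrl in the branchiomeric arm (vertical axis) against the same ratio in branchiomeric cells without Myf5 or Myod1 (horizontal axis), 1 library per genotype. Grey points are the genes tested, of which 12 lie outside the axes, and coloured points are named genes. Lhx2 and Tlx1 lie low on both axes, while Cdkn1c, Gtf2ird1 and Cdo1 are above 0 on the vertical axis and below 0 on the horizontal axis, where the median of all genes is -0.24.

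Within each library the branchiomeric arm was then set against the branchiomeric cells without Myf5 or Myod1 (709 in Ctrl and 608 in cKO). Library and genotype are the same on both sides. In the arm 66 of 101 Ctrl and 36 of 57 cKO cells held exactly 1 UMI of the pair. The other cells may therefore include cells that express these genes unseen. They were also shallower, with medians of 17899 and 17431 UMIs against 20883 and 19773 in the arm. Past 2-fold, 0.647% of genes were higher and 4.74% lower in the myogenic cells of Ctrl, and 1.25% and 5.35% in cKO. In both libraries together 16 genes were higher and 172 lower. The minimum of 50 UMIs is taken over both sides, and the other cells held 13412326 UMIs against 2181049 in Ctrl and 11091162 against 1155006 in cKO, so genes high in the other cells passed it more easily and the numbers higher and lower are not set against each other.

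The 10 most different higher genes in both libraries were Col25a1, Lhx2, Hlx, Emx1, Vgll3, Dmrta1, Sertad4, Lmo1, Stk26 and Daam2. Lhx2 was at 166 UPM in myogenic and 64.6 UPM in other cells of Ctrl, and at 65.8 and 14.1 UPM in cKO, log2 ratios of 1.37 (1.19 to 1.54) and 2.23 (1.81 to 2.63). Hlx, a homeobox gene, had ratios of 1.33 (1.15 to 1.50) and 2.03 (1.72 to 2.33), and Vgll3, a cofactor of TEAD proteins, 1.31 (0.90 to 1.71) and 2.23 (1.40 to 3.01). Col25a1, a membrane collagen that developing muscle needs to attract motor axons, had 1.38 (1.13 to 1.62) and 1.47 (0.93 to 1.98). Tbx1 was modestly higher in myogenic cells of both, at 0.47 (0.32 to 0.61) and 0.58 (0.38 to 0.78).

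In this comparison Cdkn1c turned from -0.64 (-0.75 to -0.53) in Ctrl, with 343 UPM in myogenic and 534 UPM in other cells, to 0.42 (0.30 to 0.54) in cKO, with 591 and 442 UPM. With 1 library per genotype the difference was not tested.

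Cardiac and epithelial genes led the lower side. Tnni1 and Myl7, contractile genes of the early heart, gave 23 and 18 UMIs in the Ctrl arm and 7 and 10 in cKO, with log2 ratios of -4.38 and -5.06 in Ctrl and -4.68 and -3.84 in cKO. Gata5, Hand2, Osr1 and Foxf1, transcription factors of the heart field and splanchnic mesoderm, gave 0, 6, 1 and 3 UMIs in Ctrl and 1, 0, 3 and 0 in cKO. Krt8 and Krt18, the simple epithelial keratins, gave 6 and 14 UMIs in Ctrl and 0 and 1 in cKO, and Ttn and Hapln1 were the other 2 of the 10. The muscle differentiation list, which holds contractile genes of the heart, had a median of -2.59 in Ctrl, with 0 of 25 genes higher and 16 lower, and of -1.06 in cKO with 2 of 22 higher and 11 lower. Summed over 7 cardiomyocyte markers the arm was at 28.0 and 26.0 UPM, and the other branchiomeric cells at 458 and 195 UPM.

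**Figure D5:**
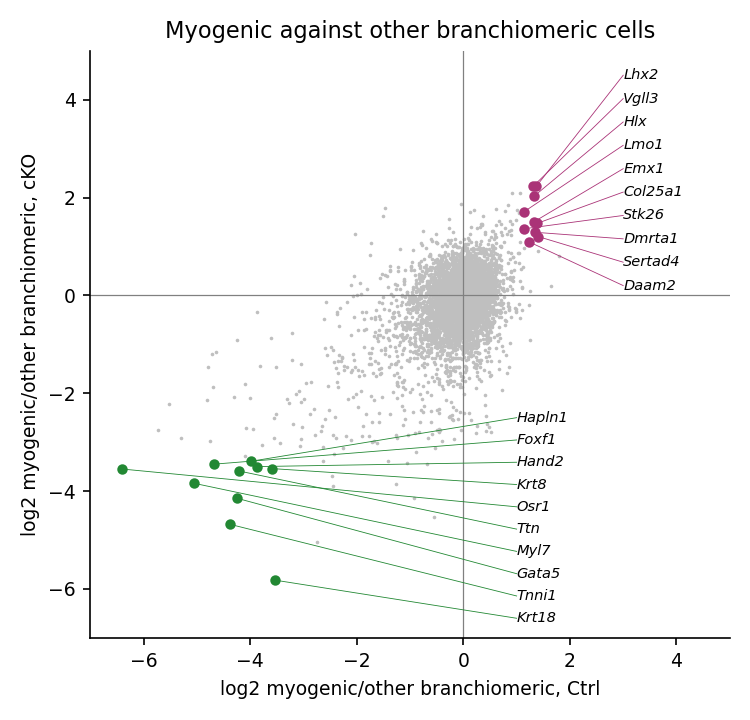
Log2 ratio of the branchiomeric arm over the branchiomeric cells without Myf5 or Myod1 in Ctrl (horizontal axis) and in cKO (vertical axis), 1 library each. Grey points are genes with at least 50 UMIs on each axis, of which 1 lies outside, and coloured points are the 10 named genes each way. The higher genes reach 2.23 and the lower genes lie below -3.

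Promoters of these 10 higher genes were searched for the E-box, the site of Myf5 and Myod1, since the genes moved together with those factors. All 10 genes and Myf5 matched RefSeq promoters (GRCm38.p6, 250 bases before to 50 after the start), with 14 promoters for the 10 genes. CANNTG, which reads the same on both strands, was found in 6 of the 14 (42.9%) against 72.3% of all 32851 promoters, and its form CAGCTG in 1 (7.14%) against 16.3%. The pair of Lmo1 promoters overlap and share their site. The Myf5 promoter held none. The 3 below are shown for the factor itself, the most different regulator and the gene with CAGCTG, with each CANNTG in capitals. Lhx2 had 2 promoters, and the 1 with a CANNTG is shown. Its other promoter (chr2:38339031-38339330), which spans the gene start given above, held none. A match is a stretch of letters and not evidence of binding.
Myf5 (chr10:107486085-107486384, minus strand): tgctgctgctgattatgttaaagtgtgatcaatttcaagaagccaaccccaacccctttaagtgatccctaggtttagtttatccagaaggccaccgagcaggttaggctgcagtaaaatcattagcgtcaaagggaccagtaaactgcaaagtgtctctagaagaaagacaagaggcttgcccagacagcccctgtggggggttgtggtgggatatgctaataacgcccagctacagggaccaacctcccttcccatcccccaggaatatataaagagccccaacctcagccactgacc
Lhx2 (chr2:38351058-38351357, plus strand): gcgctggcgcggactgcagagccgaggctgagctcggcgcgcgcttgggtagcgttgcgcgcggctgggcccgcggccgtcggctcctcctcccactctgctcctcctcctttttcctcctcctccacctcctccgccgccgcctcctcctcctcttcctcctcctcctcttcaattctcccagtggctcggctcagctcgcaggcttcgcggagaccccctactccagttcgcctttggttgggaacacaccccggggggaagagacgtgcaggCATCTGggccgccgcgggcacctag
Dmrta1 (chr4:89687948-89688247, plus strand): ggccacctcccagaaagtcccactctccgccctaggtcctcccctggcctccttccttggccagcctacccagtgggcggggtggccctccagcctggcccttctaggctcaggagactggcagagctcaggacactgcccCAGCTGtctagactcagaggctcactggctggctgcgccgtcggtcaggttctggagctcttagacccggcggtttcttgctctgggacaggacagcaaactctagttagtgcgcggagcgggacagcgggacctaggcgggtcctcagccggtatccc

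The somitic arm could be described in cKO only, with 18 cells and 389505 UMIs. All 18 held Myf5 (24 UMIs) and none held a Myod1 UMI (exact interval 0 to 18.5%), which limits cells with a UMI and not cells expressing the gene. As given above, the share of somitic cells with Myf5 or Myod1 could not be told from background. Pax3 (chr1:78101267-78197136), the paired box factor that drives Myf5 in the dermomyotome, gave 28 UMIs in 11 of the 18 cells and 0 in the 57 branchiomeric cells. Its level was 71.9 UPM (47.8 to 104), against 3.20 UPM (2.58 to 3.91) in the 1716 somitic cells without Myf5 or Myod1, a log2 ratio of 4.49 (3.83 to 5.11). Pax3 was no part of the rule. Of the somitic cells without Myf5 or Myod1, 44 of 1716 in cKO (2.56%) and 1 of 705 in Ctrl (0.142%) held a Pax3 UMI.

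Other dermomyotome genes went with Pax3. Of the 13 somitic regulators tested against the other somitic cells 5 were higher past 2-fold and none lower, where 6.06% of all genes were higher and 7.68% lower. Meox2 was at 43.6 and 7.38 UPM and Zic1 at 87.3 and 20.3 UPM, log2 ratios of 2.56 (1.76 to 3.28) and 2.11 (1.56 to 2.60). Genes high in the 1716 other cells passed the minimum of 50 UMIs more easily here too. Tbx1 was lower, at 82.2 and 160 UPM, -0.96 (-1.51 to -0.46), and was seen in 12 of the 18 cells.

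Between the arms in cKO, 2.65% of 3469 genes were higher and 1.61% lower past 2-fold in the branchiomeric arm. Those named on its side include Lhx2, Edn1, Gm266, Uncx, Hlx, Nnat, Pcp4, Foxl2 and S100a10. Lhx2 gave 76 UMIs in the 57 branchiomeric and 0 in the 18 somitic cells, at least 3.09 on the log2 scale against 3 counts. Edn1, the endothelin ligand of arch patterning, gave 59 and 0 UMIs. The 10 on the somitic side were Gap43, Fst, Ncam1, Flrt2, Nr2f1, Ptn, Prrx1, Meis2, Crabp2 and Lpar1. Gap43 was at 128 UPM in somitic and 10.4 UPM in branchiomeric cells, and Ncam1, the neural cell adhesion molecule also carried by myoblasts, at 118 and 14.7 UPM.

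The cells of neither arm were mixed. In Ctrl, 9 of 26 held Lhx2 and 21 held Tbx1, while in cKO 0 of 27 held Lhx2 and 21 held Tbx1. Among reference cells Lhx2 was seen in 4.19% in Ctrl and 1.94% in cKO, and Tbx1 in 61.2% and 58.8%. Pax3 was at 0 in the cells of neither arm in both libraries. Neural markers summed to 9.81 UPM in Ctrl (4 UMIs) and 275 UPM in cKO (119 UMIs). In the reference cells they were at 59.2 and 97.6 UPM, and in the other branchiomeric cells at 17.4 and 46.9 UPM. How these UMIs were spread over the cells is not given, and the cells of neither arm were given no name.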

How the data were processed

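The authors deposited, for each library, a matrix of raw UMI counts per gene and barcode, made with Cell Ranger (3.1.0 in the submitters' processing notes) on mm10 (GRCm38). The E9.5 tables of Ctrl and cKO listed different numbers of genes, and the 27514 shared by ID in all tables were used. Every ratio between the E9.5 libraries therefore carries the gene reference along with the genotype. All deposited barcodes were kept and doublets were not called. UMIs were summed over the cells of an arm and scaled to UMIs per 1000000. With 1 library per group no test was run: counts have exact Poisson intervals, shares exact Clopper-Pearson intervals and ratios exact conditional binomial intervals (scipy 1.17.1, Python 3.11.15), checked on simulated data. Past 2-fold means a log2 ratio at least 1 from the median of genes with at least 50 UMIs. A count of 0 was set to 3 for bounds, and a bound that gave no direction was left out. Genes named by size between genotypes passed 2-fold from both that median and the ratio of the reference cells, and had the 95% bound nearest to the reference ratio lying farthest from it. Those named within a library had the largest smaller log2 ratio over both libraries, with the same sign. Rule genes, ribosomal, mitochondrial, haemoglobin, Xist, Tsix and Y-linked genes were left out of naming. The arms were to be compared in both libraries, but Ctrl held 1 somitic cell, so cKO alone was used. Members and lists were chosen with earlier results of these data known. Alternatives used edgeR 4.0.16 (TMM factors, R 4.3.3), other thresholds and thinning. Some genes that the naming rule or the lists hold are not reported here.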

Additional observations from a re-analysis of the deposited data

Results flagged for a closer look

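The 3 genes below, all named by size, differed in direction between the branchiomeric myogenic cells and the branchiomeric cells without Myf5 or Myod1, with both counting intervals clear of 0. The difference was not tested, since each genotype has 1 library. Cdkn1c had a log2 ratio of cKO over Ctrl of 0.79 (0.63 to 0.94) in the myogenic cells and -0.27 (-0.33 to -0.22) in the others, where the median of all genes was -0.24, so that relative to that median Cdkn1c was close to no difference in those cells. Gtf2ird1 had 0.92 (0.23 to 1.60) and -0.55 (-0.80 to -0.30). For Cdo1, cysteine dioxygenase, the values were 1.05 (0.53 to 1.58) and -0.42 (-0.56 to -0.27). In the cells without Myf5 or Myod1, 7 cardiomyocyte markers summed to 458 UPM in Ctrl and 195 UPM in cKO. Whether the makeup of those cells bears on these directions was not tested.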

How the results depend on the processing

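The difference of cKO from Ctrl in the myogenic share of barcodes (-0.615 percentage points), in the branchiomeric share of myogenic cells (-26.2) and in the thinned myogenic share of branchiomeric cells (-1.98) kept its direction under the alternatives run, with ranges of -0.657 to -0.232, -26.2 to -17.6 and -3.90 to -0.084. For the share of barcodes, leaving out barcodes above 2 times the library median took them from the myogenic cells only, which gave -0.657. In the thinned share that alternative removed no cell, since all thinned cells have the same total. Counts past 2-fold in the branchiomeric arm followed the filter. They were 122 higher and 248 lower as reported, 71 and 165 with at least 2 UMIs of Myf5 plus Myod1, 44 and 77 with the reference-cell ratio subtracted, 313 and 492 with a minimum of 20 UMIs, and 691 and 935 with 1 UMI in each library. The Tbx1 ratio, -0.03, was -0.32 with the reference cells subtracted and above 0 in 3 alternatives (up to 0.15), and the median of the muscle list, -0.09, ran from -0.29 to 0.37. The median of the branchiomeric regulators ran from -0.50 to -0.06 and lay near that of all genes in the settings set beside it. It was -0.28 beside -0.22 as reported and -0.11 beside -0.04 with TMM factors. With the reference cells subtracted it was -0.06 beside -0.03. Against other branchiomeric cells, 114 genes were lower after thinning (172 reported). Between the arms, 23 genes were lower in the branchiomeric arm with at least 2 UMIs (56 reported), and 49 were higher and 22 lower after thinning (92 and 56). Subtracting the reference cells moved Lhx2 to -0.06 and Tlx1 to -0.28. Crabp1 was -0.34 without barcodes above 2 times the library median. The alternatives without ribosomal protein genes in the totals and without cells with neural markers were chosen after seeing the data. Of the values of single named genes 20 moved beyond their counting interval and 197 did not, and no named gene past 2-fold changed sign. The median of all genes, -0.22, was -0.04 with TMM factors, -0.03 with the reference cells subtracted and -0.09 without ribosomal protein genes. The somitic arm was not compared between genotypes, nor were its alternatives run, since Ctrl held 1 such cell. No paired analysis was possible because each group had 1 library. With 57 cells in the cKO arm, genes under 50 UMIs over both libraries were not counted as tested.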

Other observations

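The E8.5 libraries held few cells that met the rule, 7 of 1434 barcodes in Ctrl and 4 of 1090 in cKO. In Ctrl 5 of the 7 lay in the somitic arm, 1 in both arms and 1 in neither, and in cKO all 4 lay in the somitic arm. None was in the branchiomeric arm alone, against 101 and 57 at E9.5.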
